A study of Sus scrofa with 48 samples.

Results

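The genes described here are 10 genes of the endoplasmic reticulum stress response, HSPA5, HSP90B1, CALR, PDIA4, HERPUD1, XBP1, ATF4, DDIT3, ATF3 and TRIB3, in the liver of pigs. Members were chosen by name, as the probes of the array whose gene name equals a member or whose accession maps to it, a rule that uses no measured value, although the 10 genes were picked with earlier results of these data known. Of the 10 genes, 8 were measured, by 38 probes, and they stand among 10652 named genes with a tested probe. No probe was matched to PDIA4 or TRIB3, which are not analysed here.

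Liver RNA of each of 48 barrows (castrated male pigs) was hybridized to an array of its own. They belonged to lines that 8 generations of selection had separated for residual feed intake (RFI), which is the feed that an animal eats above or below what its growth and maintenance predict, so that low-RFI pigs are the more efficient ones. From 74 days of age, pigs from both lines were fed ad libitum either a high-fat high-fiber diet (HF) or a low-fat low-fiber diet (LF), which gave 4 groups of 12 pigs, and livers were taken at about 19 weeks of age, 2 h after the last meal. The labels name no unselected or stressed group, and all pigs of a level of RFI come from 1 line, so that what distinguishes the lines beyond RFI cannot be told apart from RFI itself.

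The endoplasmic reticulum is where secreted proteins are folded, and hepatocytes secrete most proteins of the blood plasma. When unfolded proteins build up, the sensors IRE1, PERK and ATF6 start the unfolded protein response. IRE1 splices the messenger RNA of XBP1 into that of an active transcription factor, PERK slows translation while favouring that of ATF4, and ATF6 is cut into a transcription factor. Their targets include chaperones (HSPA5, HSP90B1, CALR), proteins of the degradation of misfolded proteins (HERPUD1) and, when the stress lasts, the factors DDIT3 (also called CHOP) and ATF3. An array measures the amount of RNA, and neither splicing of XBP1 nor the translation of ATF4 or the cleavage of ATF6 was measured.

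Levels are given as log2 intensities relative to the median of the tested probes of the same array, so that a level of 1 is an intensity 2 times that median. Since probes differ in brightness, levels of different genes or probes are no measure of relative amounts of RNA. Every gene is represented by its brightest probe, the probe with the highest mean over the 48 pigs, and its other probes are given as ranges. A probe was called at a P under 0.01 and a fold-change (FC) over 1.1 in limma's linear model, and P-BH is the P adjusted over all 45236 tested probes by the Benjamini-Hochberg method.

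Whole arrays were alike between groups in design, each of 6 slides holding 2 arrays of every group. The share of probes well above background lay between 65.8% and 77.2% per array. All 9 measured hepatocyte markers of the 10 listed stood above background on the 48 arrays by the same flag, with a summed intensity of 7100 to 11800 times the median probe. The summed intensity was 175 to 413 for 10 Kupffer cell and macrophage markers, 6.46 to 13.5 for 7 B and plasma cell markers and 3.29 to 8.45 for 4 pancreas markers. It was 116 to 249 for 10 stellate cell and fibroblast, 119 to 223 for 10 endothelial and 47.3 to 66.2 for 10 T and NK cell markers. It was 31.5 to 145 for 6 erythroid, 22 to 59.7 for 8 adipose and muscle and 6.5 to 17.4 for 7 cholangiocyte markers. The sums run over different numbers of genes and are no measure of shares of cells. Among the members, 37 of 38 probes stood well above background on each array, and the probe of ATF3 did so on 41.

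The array carries 60-base probes, and those printed here are the ones that show how well a member could be measured. They are given 5′ to 3′ as the scanner files hold them, and each of them reads through at least 1 frame without a stop codon. In the pairs of probes from HSP90B1, XBP1 and ATF4, capitals mark the bases that both probes of a pair share, or, in the pair of HSP90B1, the 39 bases of each probe that are complementary to those of the other. The probe of ATF3 is shown since it is the only member probe that was called, that of DDIT3 since the array carries it under 2 names, and those of HSPA5 and CALR as stretches of what was measured. The probes shown of HSPA5, CALR, HSP90B1, XBP1, ATF4 and DDIT3 are not the brightest of their gene, and those of HSPA5 and CALR had r of 0.92 and 0.88 with the brightest one.
HSPA5, A_72_P416982: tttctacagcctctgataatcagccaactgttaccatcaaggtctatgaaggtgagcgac
CALR, A_72_P402718: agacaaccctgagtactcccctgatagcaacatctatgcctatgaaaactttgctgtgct
HSP90B1, CUST_304_PI427286967: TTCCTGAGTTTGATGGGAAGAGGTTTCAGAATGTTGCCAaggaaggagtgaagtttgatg
HSP90B1, O7995: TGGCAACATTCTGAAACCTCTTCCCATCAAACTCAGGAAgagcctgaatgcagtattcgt
XBP1, A_72_P544772: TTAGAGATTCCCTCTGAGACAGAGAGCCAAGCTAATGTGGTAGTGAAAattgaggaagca
XBP1, O9563: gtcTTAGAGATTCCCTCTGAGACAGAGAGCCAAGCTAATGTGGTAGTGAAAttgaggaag
ATF4, A_72_P284859: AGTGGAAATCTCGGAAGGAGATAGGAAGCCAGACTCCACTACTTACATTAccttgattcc
ATF4, A_72_P689016: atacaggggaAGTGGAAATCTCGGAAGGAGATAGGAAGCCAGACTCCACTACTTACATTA
DDIT3, A_72_P440751 and O11871: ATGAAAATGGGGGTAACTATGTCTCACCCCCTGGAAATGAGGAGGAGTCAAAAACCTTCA
ATF3, O9433: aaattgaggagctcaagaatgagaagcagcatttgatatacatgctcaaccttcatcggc

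These pairs gave the error of the measurement within an array. The identical probes of DDIT3 had mean levels of -0.41 and -0.42, their difference varied between pigs with an SD of 0.11, and the SD of each between pigs of the same group was 0.27. The probes of XBP1 that share 48 bases had a difference with an SD of 0.06 against a spread between pigs of 0.38 and 0.36, and those of ATF4 that share 50 bases had a difference with an SD of 0.07 against 0.31 and 0.32. Most of the spread between pigs was therefore seen by both probes of each pair. The probe of HSP90B1 named O7995, which reads the opposite strand, had a mean level of -1.62, against 4.30 for its partner, but varied between pigs with it (r = 0.78 over 48 pigs, group means removed). O7995 was kept among the 38 member probes, in the average of all probes of HSP90B1 and in the combinations of probes.

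In the comparison of lines, 1 of the 38 member probes was called, that of ATF3, which was lower in low-RFI pigs. By probe, this share (2.63%) lies below that of all tested probes, 6.91% of which were called for line. By gene it does not, with 1 of the 8 measured genes called, against 6.86% of all genes with 1 probe each. Neither difference in share was tested. At a P-BH of 5%, 0 of the 38 probes passed (lowest P-BH 0.105), against 1778 of all 45236 tested probes, and 1 had an unadjusted P under 0.05, against 6628 of all tested probes. The methods' ANOVA, without moderated variances, called 1 of them as well. The other 37 probes had log2 FC of at most 0.15 in size, and over all 38 the median of the absolute log2 FC was 0.05, against 0.07 over all tested probes. In these bulk samples, fewer cells of a type and less RNA per cell cannot be told apart.

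**Figure D1:**
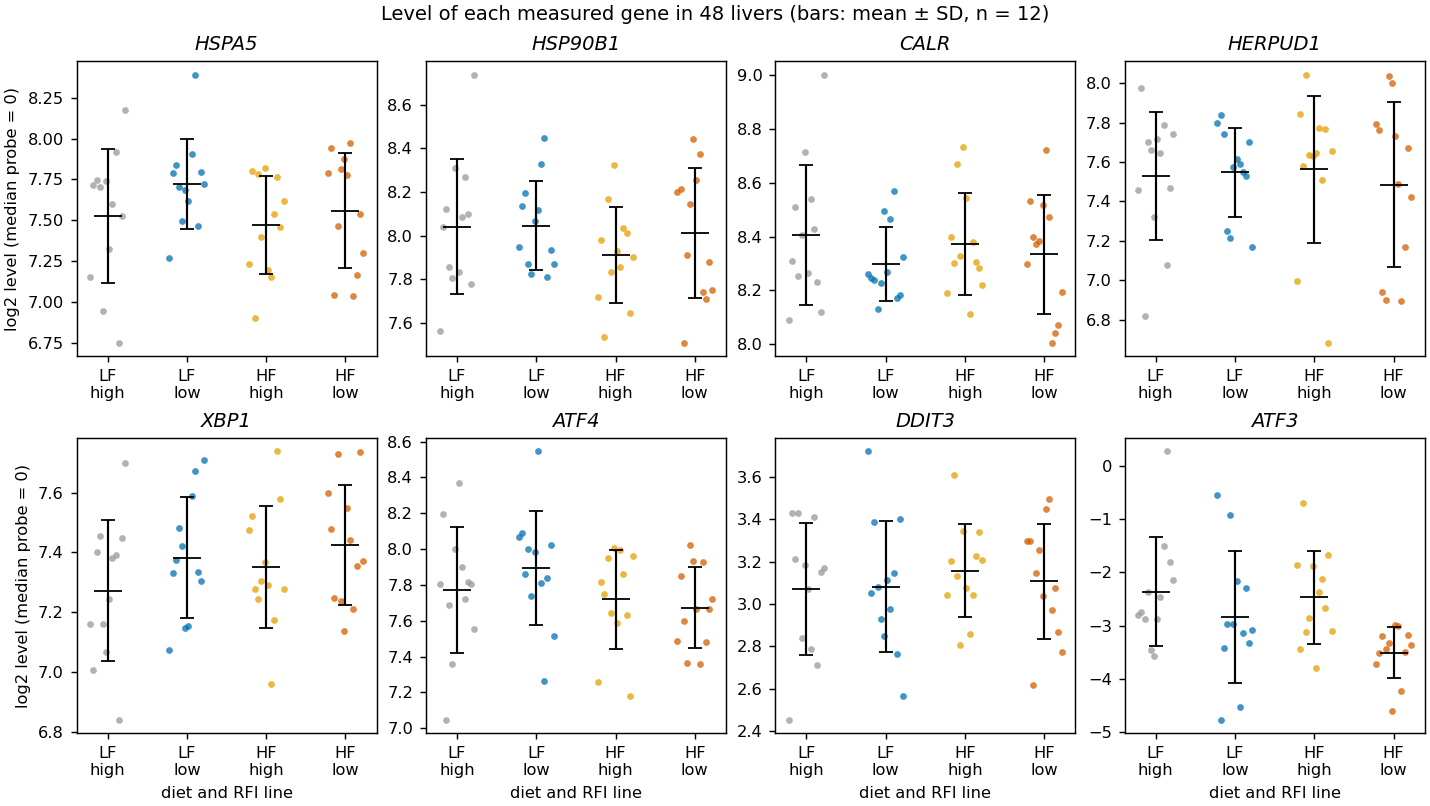
Level of the brightest probe of each of the 8 measured genes in every liver (log2, the median tested probe of an array being 0), by diet and RFI line, with the mean ± SD of 12 pigs. The 4 groups overlap for every gene, and in ATF3 the low-RFI pigs fed the HF diet lie between -4.60 and -2.99.

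Of the chaperones, HSPA5 (BiP), which binds unfolded proteins and keeps the sensors silent, had a median of 7.71 in low-RFI pigs (range 7.04 to 8.39) and of 7.57 in high-RFI pigs (range 6.75 to 8.18). Its log2 FC was 0.14 (standard error 0.10, 95% confidence interval -0.05 to 0.34, P = 0.146, P-BH = 0.557 with limma). The ranges overlap over most of their length, and the difference was smaller than the SD between single pigs of a group (0.34), which is not the error of a mean. Both other probes had the same sign, at 0.07 and 0.15.

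HSP90B1 (endoplasmin, also called GRP94), a chaperone of membrane and secreted proteins, had a mean of 8.03 ± 0.25 (SD, n = 24) among low-RFI pigs and 7.98 ± 0.27 (SD, n = 24) among high-RFI pigs. Its log2 FC was 0.05, with a 95% interval from -0.10 to 0.20, and its 10 probes lay between 0.01 and 0.09. The highest of these belongs to O7995, which reads the opposite strand, and the other probes reached at most 0.05. CALR (calreticulin), which folds glycoproteins and binds calcium, was the only chaperone with a negative value, -0.07 (95% interval -0.19 to 0.05), and its 3 probes lay between -0.14 and -0.07. None of these chaperones was called for line.

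HERPUD1, a membrane protein that assembles the machinery of degradation, had means of 7.52 ± 0.33 (SD, n = 24) among low-RFI and 7.55 ± 0.34 (SD, n = 24) among high-RFI pigs, a log2 FC of -0.03 (95% interval -0.23 to 0.17). Its levels went from 6.89 to 8.04 in the low and from 6.68 to 8.05 in the high RFI line, so that the lines covered nearly the same range.

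Of the transcription factors, XBP1 had a range from 6.84 to 7.74, which is 1.86 times between the lowest and the highest liver and the narrowest of the 8 genes. Its mean was 7.40 ± 0.20 (SD, n = 24) among low-RFI and 7.31 ± 0.22 (SD, n = 24) among high-RFI pigs, for a log2 FC of 0.09 (95% interval -0.03 to 0.22, P = 0.143). All 9 probes of XBP1 were on the same side, between 0.05 and 0.09. ATF4 stood at 7.79 ± 0.29 (SD, n = 24) and 7.75 ± 0.31 (SD, n = 24), with a log2 FC of 0.04 (95% interval -0.13 to 0.21) and 7 probes between 0.03 and 0.07. Probes of the same gene share their source, so that their common sign is no support of its own.

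DDIT3, which is raised by ATF4 in lasting stress, had a mean of 3.09 ± 0.29 (SD, n = 24) among low-RFI and 3.11 ± 0.27 (SD, n = 24) among high-RFI pigs. The log2 FC was -0.02 (95% interval -0.18 to 0.14), and its 3 probes lay between -0.02 and -0.01. For the 7 members other than ATF3, the 95% intervals of the line effect reached at most from -0.23 to 0.34 on the log2 scale, and FC up to 1.26 are within the interval of HSPA5. In simulated data, 86.5% of 200 probes given a line change of 0.5 (log2) were called. These probes were drawn from all tested ones, with noise independent between probes and arrays, so that this share is not the power for the members.

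ATF3, a factor induced by many kinds of stress and also an immediate early gene, was the exception. With the HF diet, its level in low-RFI pigs was -4.60 at the lowest, -3.40 at the median and -2.99 at the highest, against -3.80, -2.52 and -0.70 in high-RFI pigs. With the LF diet, the values were -4.77, -3.03 and -0.54 in the low RFI line, and -3.57, -2.60 and 0.28 in the high RFI line. All 12 low-RFI pigs fed the HF diet were thus in the lower part of the range, and with the LF diet the highest livers of both lines were close to the median probe or within 1 log2 unit of it. The log2 FC for line was -0.76 (standard error 0.27, 95% interval -1.30 to -0.23, P = 0.00622, P-BH = 0.105 with limma), which is 1.70 times lower in the low RFI line. The ranges of the lines overlap, from -4.77 to -0.54 in the low and from -3.80 to 0.28 in the high RFI line.

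The call of ATF3 rests on a single, dim probe, which stood well above background on 9 of the 12 arrays from low-RFI pigs fed the HF diet, on 10 of 12 with the LF diet, and on 11 of 12 in both groups of the high RFI line. It was lost with the normexp background correction (log2 FC of -0.27, P = 0.0186), with the median signal without background subtraction (-0.39, P = 0.0123), with the deposited log2 values (-0.39, P = 0.0134) and within the scan day 1 (-0.47, P = 0.233), while the value on scan day 2 was -1.05. Within diets, the log2 FC between lines was -1.32 and -0.76 (days 1 and 2) with the HF diet, and 0.38 and -1.34 with the LF diet. It was also lost without any 1 of 6 pigs: replicate 6 of the low and replicate 3 of the high RFI line with the HF diet, replicates 2 and 8 of the low RFI line with the LF diet, and replicates 9 and 10 of the high RFI line with the LF diet (log2 FC from -0.72 to -0.64, P from 0.01 to 0.0119).

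**Figure D2:**
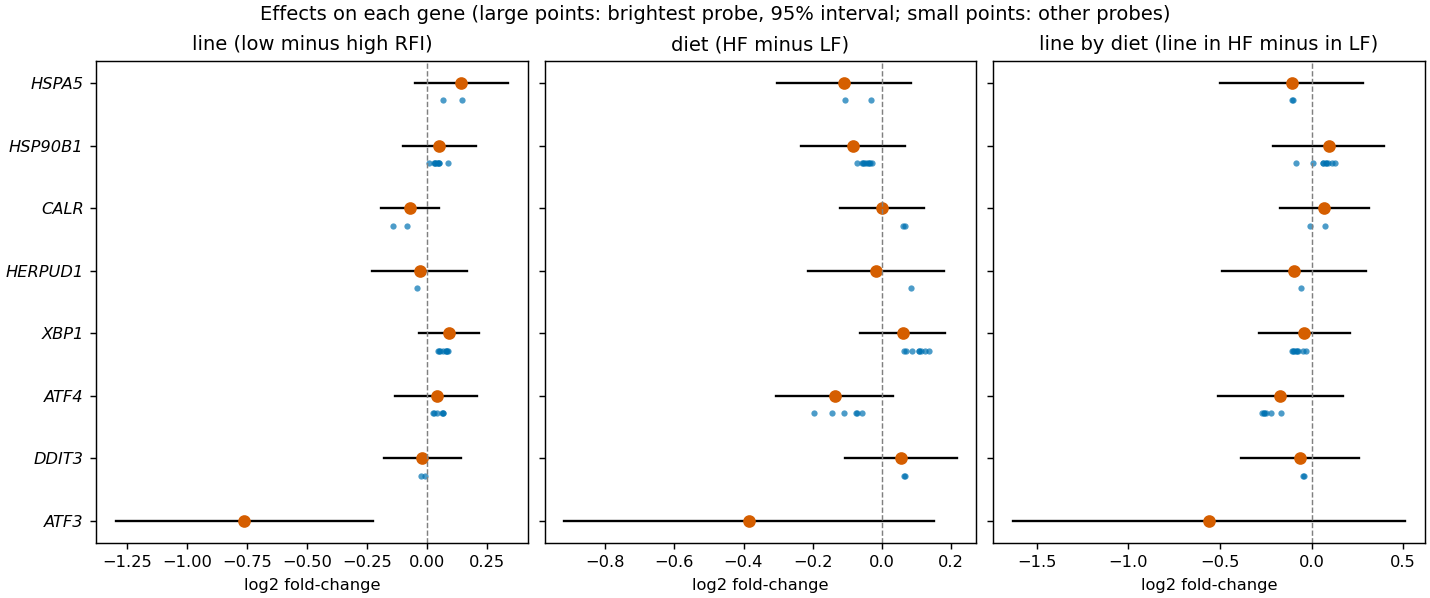
Log2 FC of each measured gene for line (low minus high RFI), diet (HF minus LF) and their interaction (line effect with HF minus line effect with LF). Large points and bars are the brightest probe with its 95% confidence interval, small points the other probes of the gene. The horizontal scales differ between panels, and the bar of ATF3 for line is the only one that does not include 0.

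In the comparison of diets, 0 of the 38 member probes was called with limma, against 4.61% of all tested probes. None had an unadjusted P under 0.05, with limma or with the methods' ANOVA, against 6526 of all 45236 probes with limma, and the lowest P-BH was 0.396. The largest value of a brightest probe was that of ATF3, -0.38 (95% interval -0.92 to 0.15, P = 0.155), followed by ATF4. In pigs fed the HF diet, ATF4 had a median of 7.69 (range 7.18 to 8.03), and with the LF diet a median of 7.83 (range 7.05 to 8.55). Its log2 FC was -0.14 (95% interval -0.31 to 0.03, P = 0.114), and its 7 probes lay between -0.20 and -0.06.

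The other members had smaller log2 FC between diets. HSPA5 had a log2 FC of -0.11 (95% interval -0.30 to 0.09) and HSP90B1 of -0.08 (95% interval -0.23 to 0.07). The brightest probe of CALR was at 0.00 (95% interval -0.12 to 0.12) and that of HERPUD1 at -0.02 (95% interval -0.21 to 0.18), with the other HERPUD1 probe on the other side, at 0.09. XBP1 was at 0.06 (95% interval -0.06 to 0.19) and DDIT3 at 0.06 (95% interval -0.11 to 0.22). All these differences were smaller than the SD between pigs of the same group, which describes single pigs and not the error of a mean. Their 95% intervals reach to both sides of no change, so that small effects in either direction remain possible.

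For the interaction, 0 of the 38 member probes was called with limma or with the methods' ANOVA, 0 had an unadjusted P under 0.05 (1071 of all 45236 probes with limma), and 0.376% of all tested probes were called. The size was largest for ATF3, whose log2 FC between lines was -1.04 with the HF diet (95% interval -1.80 to -0.29) and -0.48 with the LF diet (95% interval -1.24 to 0.28), a difference of -0.56 (P = 0.297), which turned to 0.58 on scan day 2 alone. With the HF diet alone, the line effect of ATF3 was called, with a P of 0.00798 and a P-BH of 0.265 with limma. This call was lost with the normexp correction, the median signal, the deposited log2 values and each scan day alone. With the LF diet the line effect was not called over all pigs (P = 0.207 with limma), but it was on scan day 2 alone (-1.34, P = 0.00669). On that day the value with the HF diet was -0.76 (P = 0.104), and on scan day 1 that with the LF diet was 0.38 (P = 0.501). For ATF4, the diet effect was -0.22 in the low RFI line (P = 0.0711) and -0.05 in the high RFI line, and the 7 probes had interactions between -0.27 and -0.17. The test of the difference for its brightest probe gave P = 0.322.

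Other genes of the pathway were taken from 8 lists, the members being left out of them. Together the lists held 173 genes, 141 of which were measured. For line, 2 were higher and 2 lower in low-RFI pigs, which is 2.84% against 6.86% of all genes with 1 probe each. For diet, 0 of 141 was called with limma or with the methods' ANOVA, against 4.19% of all genes. An unadjusted P under 0.05 for diet was found for 11 of the 141, against 1527 of all 10652 genes. For the interaction, 1 was called, or 0.709% against 0.329%. At a P-BH of 5%, 2 of the 141 passed for line (3.87% of all genes), 0 for diet (0.573% of all genes) and 0 for the interaction (0% of all genes, 213 of which had an unadjusted P under 0.05, and 0% with the methods' ANOVA too).

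Among 25 measured chaperones and folding enzymes, CANX (calnexin), the membrane-bound partner of CALR in glycoprotein folding, was higher in low-RFI pigs, with a log2 FC of 0.19 (95% interval 0.08 to 0.30, P-BH = 0.0397). The median log2 FC of this list was 0.015, against 0.006 over all genes. In the list of 32 measured ATF4 targets and genes of the response to amino acids, SLC7A1, a transporter of basic amino acids, was under-expressed (log2 FC of -0.33, 95% interval -0.49 to -0.17, P-BH = 0.0083). In the same list, the glutamine transporter SLC1A5 (0.28, P-BH = 0.054) and the transcription factor CEBPB (-0.29, P-BH = 0.12) were called at the lower threshold, and they are named after their values were seen. The median of that list was -0.08.

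No gene was called for line in the remaining 6 lists. The smallest P was found for EIF2AK3, which codes for the sensor PERK, among 12 sensors and regulators (log2 FC of 0.17, P = 0.0319), for SELENOS among 19 genes of degradation (0.20, P = 0.031), and for SEC63 among 24 genes of translocation and vesicle exit (0.16, P = 0.0173). It was found for BCL2L11 among 9 genes of apoptosis (-0.20, P = 0.0364), for JUN among 11 immediate early genes (-0.48, P = 0.0219) and for HSP90AB1 among 9 cytosolic heat shock genes (0.12, P = 0.0328). The sensor genes ERN1 (IRE1) and ATF6 were at 0.12 and -0.01.

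For diet, the smallest P of each list belonged to PPP1R15A (-0.16, P = 0.0276), FKBP11 (-0.17, P = 0.0275), EDEM2 (-0.11, P = 0.0698), SRPRA (-0.14, P = 0.0337), CEBPB (0.28, P = 0.0115), TXNIP (-0.17, P = 0.0578), MYC (-0.51, P = 0.0144) and DNAJB1 (-0.27, P = 0.0752), and none was called. For the interaction it belonged to PPP1R15B, DNAJB9, UBE2G2, SSR4, DDIT4, TXNIP, KLF6 and HSPH1. Of these, KLF6, an immediate early gene, was called (-0.765, P = 0.0099, P-BH = 1), and the others had P between 0.0578 and 0.174.

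While group means lay close together, livers of the same group differed, and the members were compared over the 48 pigs after removing group means. Of the 28 pairs of measured members, 10 passed a P-BH of 5% in a 2-sided permutation test within groups (100000 resamples, adjusted over the 28 pairs), 9 of them positive and 1 negative. All 10 also passed with Spearman's rho and had the same sign on both scan days. Points share an array, so that errors of 1 array enter both genes of a pair.

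**Figure D3:**
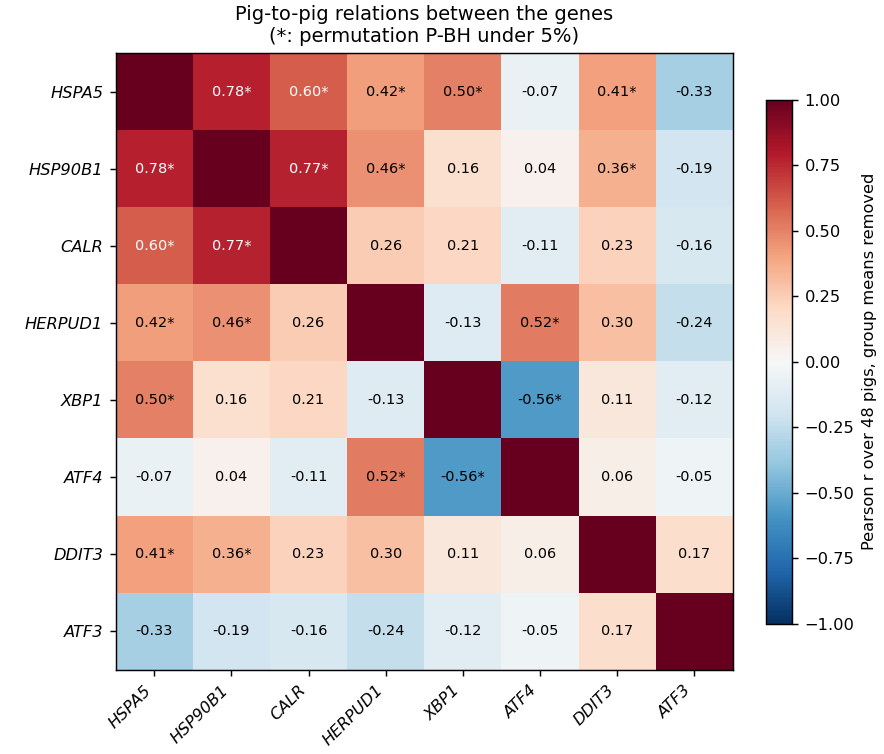
Pearson r of each pair of measured genes over 48 pigs, as differences of log2 levels from the group mean, with stars where the permutation P-BH is under 5%. The 3 chaperones are positively related to each other, XBP1 and ATF4 negatively, and ATF3 has no starred value.

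The closest relations joined the chaperones. HSPA5 and HSP90B1 had an r of 0.78 (rho 0.80, permutation P = 1e-05, the smallest that the resamples can give, P-BH = 0.00014). This r was 0.83 without the 2 pigs farthest from the median of HSPA5 and 0.74 without those farthest in HSP90B1. It was 0.85 and 0.72 on the 2 scan days, and between 0.64 and 0.95 in the 4 groups. HSP90B1 and CALR had an r of 0.77 (rho 0.73, P-BH = 0.00014; 0.69 and 0.84 by scan day), which was 0.78 without the 2 pigs farthest from the median of HSP90B1 and 0.71 without those farthest in CALR. HSPA5 and CALR had an r of 0.61 (rho 0.59, P-BH = 0.00056; 0.46 and 0.68 by scan day; 0.58 without the 2 pigs farthest in HSPA5). These are tendencies over the 48 livers, and single livers went against them, such as replicate 4 of the high RFI line with the LF diet, which lay above its group mean in HSPA5 (0.18) and below it in HSP90B1 (-0.185) and CALR (-0.151).

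Around these, HERPUD1 was related to HSP90B1 (r = 0.46, rho 0.50, permutation P-BH = 0.00908, 0.46 and 0.44 by scan day, 0.42 without the 2 pigs farthest in HSP90B1), to HSPA5 (r = 0.42, rho 0.48, P-BH = 0.0161, 0.40 and 0.46 by scan day, 0.40 without the 2 pigs farthest in HSPA5) and to ATF4 (r = 0.52, rho 0.43, P-BH = 0.00084, 0.70 and 0.31 by scan day, 0.38 without the 2 pigs farthest in HERPUD1). DDIT3 was related to HSPA5 (r = 0.41, rho 0.53, P-BH = 0.018, 0.31 and 0.61 by scan day, 0.38 without the 2 pigs farthest in HSPA5) and to HSP90B1 (r = 0.36, rho 0.37, P-BH = 0.0454, 0.37 and 0.42 by scan day, 0.31 without the 2 pigs farthest in HSP90B1). Its relation to ATF4 was 0.06 (P-BH = 0.75). Within the 4 groups, these relations were less even than those among chaperones, from -0.10 to 0.76 for HSPA5 and DDIT3, from -0.17 to 0.79 for HSP90B1 and DDIT3, from 0.04 to 0.82 for HSPA5 and HERPUD1, from 0.02 to 0.77 for HSP90B1 and HERPUD1, and from 0.41 to 0.83 for HERPUD1 and ATF4. With the average of all probes of a gene, 4 of these 5 relations did not pass, HSPA5 with DDIT3 being the exception.

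XBP1 was related to HSPA5 with an r of 0.50 (rho 0.43, permutation P-BH = 0.00285), but this was 0.17 on scan day 1 and 0.72 on scan day 2, and 0.40 without the 2 pigs farthest from the median of HSPA5. The only negative relation that passed was that of XBP1 and ATF4, with an r of -0.56 (rho -0.62, P-BH = 0.00084), at -0.59 and -0.61 on the scan days, -0.57 without the 2 pigs farthest in XBP1 and between -0.79 and -0.37 in the 4 groups. ATF3 had no relation that passed, the largest in size being -0.33 with HSPA5 (P-BH = 0.0598), which fell to -0.21 without the 2 pigs farthest from the median of HSPA5.

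**Figure D4:**
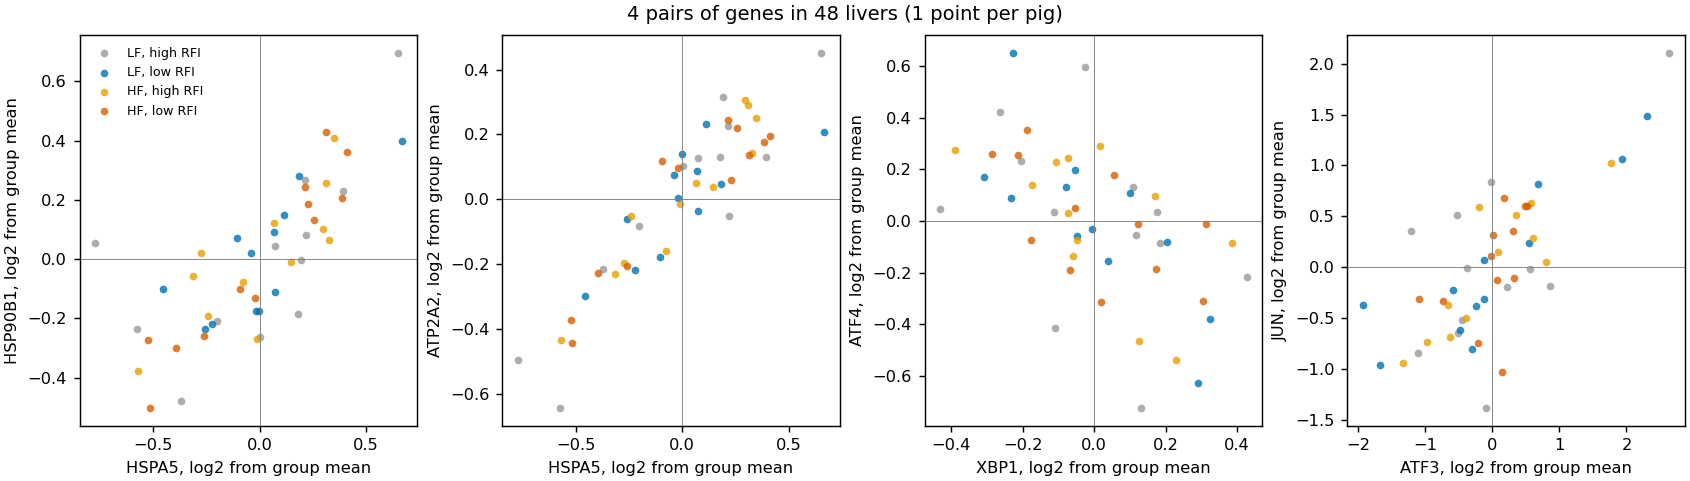
Pairs of genes over 48 pigs, each point being a liver and both axes the difference from the mean of its group (log2), coloured by group. HSPA5 against HSP90B1 (r = 0.78) and against ATP2A2 (r = 0.90) rise together, XBP1 falls as ATF4 rises (r = -0.56), and ATF3 rises with JUN (r = 0.74).

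The choice of probe mattered for some of these values and not for others. Over all probes, the 30 combinations of an HSPA5 and an HSP90B1 probe gave r between 0.56 and 0.79, and the 30 of HSP90B1 and CALR between 0.58 and 0.87. The 20 of HSP90B1 and HERPUD1 ranged from -0.16 to 0.46, the value of the brightest probes being the highest, with a median of 0.04, and 12 of them were positive. The 63 combinations of an XBP1 and an ATF4 probe ranged from -0.60 to 0.11 with a median of -0.28, 55 of them being negative. With the average of all probes of a gene, a setting added after the data were seen, 5 of the 10 pairs no longer passed. These were XBP1 and ATF4 (r = -0.30, permutation P-BH = 0.0911), HERPUD1 with ATF4 (0.32, P-BH = 0.0629), HSPA5 (0.365, P-BH = 0.0594) and HSP90B1 (0.034, P-BH = 0.851), and HSP90B1 with DDIT3 (0.307, P-BH = 0.0937). The average of HERPUD1 is that of 2 probes, with mean levels of 7.53 and -2.46, so that the dim probe has the same weight as the bright one. The 3 pairs of chaperones and HSPA5 with XBP1 and DDIT3 still passed, and with HSP90B1 and XBP1 (0.41, P-BH = 0.0227) 6 of the 28 pairs did. For HSP90B1 and XBP1, the brightest probes gave 0.16 and the 90 combinations a median of 0.46.

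Within a gene, the brightest probe and the other probes did not vary fully together, and between some genes these differences were shared. The level of the brightest probe minus the mean of the others varied between pigs with an SD of 0.19 for HSP90B1, 0.14 for XBP1 and 0.15 for ATF4. The largest SD, 0.27, was that of HERPUD1, which has only 1 other probe, the dim one. Over the 48 pigs, this difference in HSP90B1 had an r of 0.82 with that in XBP1 and of 0.71 with that in ATF4, and XBP1 and ATF4 had an r of 0.81. All other pairs of members lay between -0.02 (CALR and HERPUD1) and 0.48 (HSP90B1 and CALR), and HERPUD1 had at most 0.21 with any member. For 2311 other genes with probes at least 2 log2 units apart in brightness, the mean difference between brightest and dimmest probe was compared with that of the members. Its r was 0.56 with XBP1, 0.55 with HSP90B1, 0.44 with ATF4, 0.42 with HSPA5 and with DDIT3, 0.31 with CALR and 0.28 with HERPUD1. The same mean difference had an r of -0.51 with the share of probes well above background on the array. With this mean difference as a covariate, the 10 pairs still passed. Its r with the members' own differences was at most 0.56, so that it could take out only part of them. The differences of HSP90B1, XBP1 and ATF4 had r of 0.71 to 0.82 with each other, and what they share beyond the covariate was not tested. The part of RNA quality in these relations was not tested.

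Among 9290 other named genes well above background on all arrays, the 5 whose pattern was most like that of HSPA5 were ATP2A2 (r = 0.90), the calcium pump of the endoplasmic reticulum, HYOU1 (0.88), a chaperone that works with HSPA5, LRRC59 (0.81), a protein of its membrane, SDF2L1 (0.81), a partner of HSPA5, and STT3A (0.81), a catalytic subunit of N-glycosylation. On the scan days taken apart, they lay between 0.71 and 0.92. Their log2 FC for line lay between 0.03 and 0.09 and for diet between -0.17 and -0.02, with none called. For comparison, 5% of the 9290 genes had an r with HSPA5 above 0.49, and the median was 0.03. These r describe 48 livers of 4 groups with group means removed and carry no test.

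For the other measured members, the genes alike were added after TRIB3 was found to have no probe. Those of HSP90B1 were STT3A (0.80), TRAM1 (0.77), SDF2L1 (0.75), TM9SF3 (0.74) and SEC61B (0.74), of which TRAM1 and SEC61B belong to the channel through which new proteins enter the endoplasmic reticulum. Those of CALR were PPIB (0.85) and PDIA3 (0.76), both folding enzymes, STT3A (0.75), POMT1 (0.69) and IFNGR2 (0.67). HERPUD1 was most like DNAJA2 (0.68) and DNAJB9 (0.64), both co-chaperones, TMCO1 (0.64), ADAL (0.63) and LYSMD3 (0.62).

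XBP1 was most like SEC22B (0.85) and SEC24D (0.84), of the vesicle traffic between the endoplasmic reticulum and the Golgi apparatus, ABHD5 (0.83), an activator of triglyceride breakdown, B4GALT7 (0.83), an enzyme of the Golgi apparatus, and TMED2 (0.81), a cargo receptor. ATF4 was most like PTPRD (0.74), NSDHL (0.73), an enzyme of cholesterol synthesis, EXTL1 (0.72), PIK3R1 (0.71) and WDR33 (0.70). DDIT3 had lower values, with DDX18 (0.57), a helicase of ribosome assembly, NAA15 (0.56), SMARCA4 (0.55), UTP6 (0.55) and HNRNPA3 (0.54). ATF3 was most like JUN (0.74), KLF6 (0.71), BTG2 (0.71) and EGR1 (0.65), all immediate early genes, whose RNA rises within minutes of a stimulus.

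**Figure D5:**
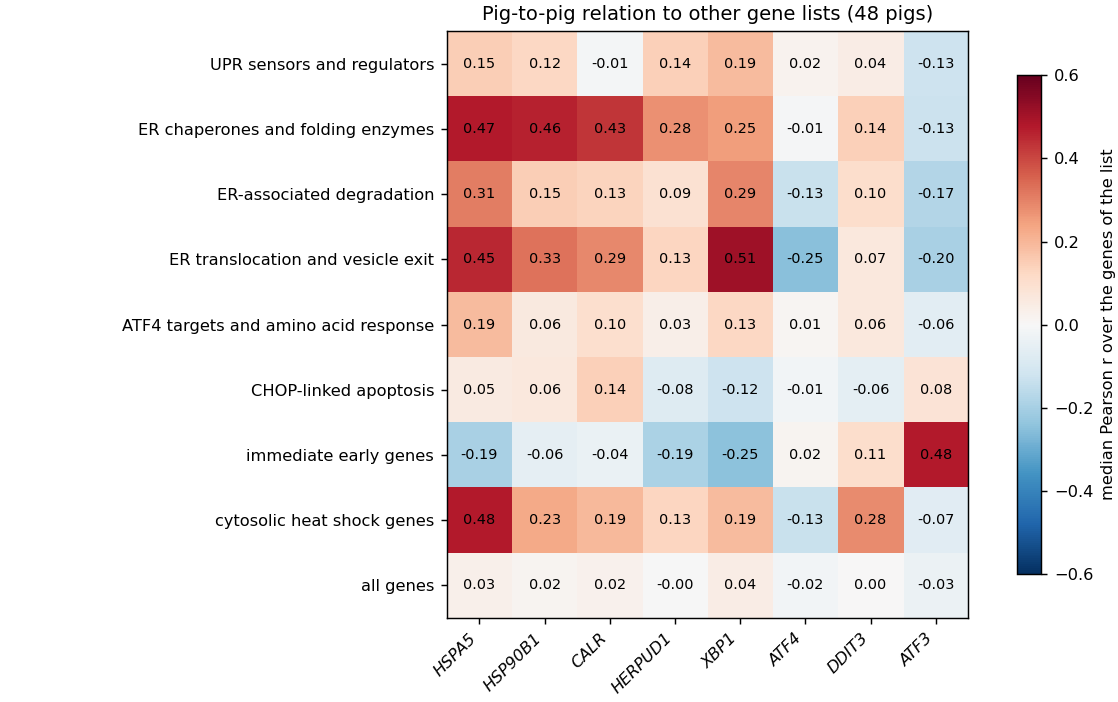
Median Pearson r over 48 pigs (group means removed) between each measured gene and the genes of each pathway list, with the median over all 9290 genes in the last row. HSPA5, HSP90B1 and CALR are high with chaperones (HSPA5 as high with cytosolic heat shock genes), XBP1 is highest with translocation and vesicle exit, ATF3 with immediate early genes, and ATF4 is negative with translocation and vesicle exit.

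With 9 cytosolic heat shock genes, HSPA5 had a median r of 0.476, and with translocation and vesicle exit of 0.451. With 22 chaperones and folding enzymes, which are those of the 25 that passed the background flag on every array, the median r was 0.475 for HSPA5, 0.46 for HSP90B1 and 0.43 for CALR, against 0.03, 0.02 and 0.02 over all genes. Of these 22 genes, 10 were above the 95th percentile of all genes for HSPA5, 13 for HSP90B1 and 15 for CALR. XBP1 had its highest median, 0.51, with 24 genes of translocation and vesicle exit, 8 of which were above its 95th percentile of 0.60. ATF4 had a median of -0.25 with the same list, 6 of the 24 being below its 5th percentile and SEC31A lowest at -0.66.

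With 30 of the 32 genes that are ATF4 targets or respond to amino acids, ATF4 itself had a median of 0.01, from -0.63 for CTH, an enzyme of cysteine synthesis, to 0.59 for PSPH, an enzyme of serine synthesis. With 12 sensors and regulators, ATF4 had a median of 0.02, from -0.53 for EIF2S1 to 0.69 for EIF2AK3. Of these genes, 1 was above its 95th percentile and 2 were below its 5th percentile. With 7 of the 9 genes of apoptosis, DDIT3 had a median of -0.06, and with 9 cytosolic heat shock genes of 0.28. ATF3 had a median of 0.48 with 11 immediate early genes, 8 of which were above its 95th percentile of 0.23, and medians between -0.20 and 0.08 with the other 7 lists.

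Some measures of the arrays moved with members. The correlation with the median signal of the array ranged from -0.26 for CALR to 0.27 for XBP1, and with the share of probes well above background from -0.39 for HERPUD1 to 0.19 for ATF3. With the mean of marker lists, the largest in size were -0.40 between ATF4 and 10 endothelial cell markers, 0.39 between CALR and 10 Kupffer cell and macrophage markers, -0.39 between ATF4 and 8 adipose and muscle markers and 0.38 between XBP1 and the same markers. Among these markers PLIN1 had an r of -0.59 with ATF4 and of 0.68 with XBP1, while the median over the 7 adipose and muscle markers above background on all arrays was 0.18 for ATF4 and -0.06 for XBP1. The summed intensity of the adipose and muscle markers ranged from 22 to 39 in low-RFI and from 28.7 to 42.5 in high-RFI pigs with the HF diet, and from 30.5 to 59.7 and from 29.9 to 43.8 with the LF diet. Their part in the relations was not tested.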

How the data were processed

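Liver RNA of 48 pigs was measured with 1 single-colour Agilent array per pig. The authors deposited the intensity of each spot as the scanner software gives it, after the software's own background correction and with no normalization between arrays. They also gave a table of log2 values that equal the logarithm of the median intensity, with no background taken off, after centring each sample on its median (largest SD of the difference from the scanner values 2.24e-07). R 2.10.0 is named in the submitters' processing notes, and a genome build of the probes is not given in the sources used here.

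The intensities with the software's background correction were used. A total of 483 spots marked as outliers were set to missing, saturated spots were 0, and log2 values were centred on the array median. Tests were run on the 45236 of 60305 probes that passed the scanner's background flag on 12 or more arrays. Symbols came from the reference table of Sscrofa11.1 by accession, otherwise from the scanner output. Line, diet and interaction were fitted to every probe (limma 3.58.1, R 4.3.3), its variances being moderated with 2.8 prior degrees of freedom, where the study's methods name an ANOVA, which was run as an alternative with the same cut-offs (P under 0.01, FC over 1.1). Correlations were tested with Python 3 scripts by permutation within groups. The planned 45 pairs of 10 members became 28, since 8 were measured. Precision is limited by the number of arrays and, where a probe is dim, by its signal over background. The model was tested on simulated data with noise independent between probes and arrays, where 0.964% of unchanged probes were called for line.

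The rule for probes uses no measured value, but the members, lists and tests were chosen with earlier results of these data known. Named were all members, in each list the genes at a P-BH of 5% (at most 3 per effect) or else that of smallest P, and the 5 genes most like HSPA5 and TRIB3. TRIB3 had no probe, and the genes alike of other members were added after the data were seen. Of the genes most like ATF3, 1 is not reported here. XBP1P1, whose probe shares at least 25 bases with a probe of XBP1, was left out of the genes alike, and 7 probes without a symbol that share bases with member probes lie outside the rule (log2 FC for line from -0.07 to 0.14 for these 8 probes, 0 called). Alternatives were the ANOVA, other centring, normalization, background and filters, slide and scan day, a model with no interaction term, log2 values as deposited, and the mean over probes of a gene. Leaving out each pig and all alternatives for correlations were added after the data were seen.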

Additional observations from a re-analysis of the deposited data

Results flagged for a closer look

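KLF6, an immediate early gene whose pattern over pigs was among the most like that of ATF3, was called for the line by diet interaction at an unadjusted P, with a value of -0.765 (standard error 0.29, 95% interval -1.34 to -0.19, P = 0.0099, P-BH = 1 with limma). With the HF diet its level was 3.64 ± 0.38 (SD, n = 12) among low-RFI pigs and 4.16 ± 0.46 (SD, n = 12) among high-RFI pigs, and with the LF diet 4.09 ± 0.60 (SD, n = 12) and 3.85 ± 0.55 (SD, n = 12). The ranges of the 4 groups overlap, from 3.15 to 4.27 and from 3.44 to 4.66 with the HF diet, and from 3.34 to 5.13 and from 3.22 to 5.18 with the LF diet. It was not called with the methods' ANOVA, the slide or the scan day as a block, centring on the 75th percentile, quantile normalization or no filter on dim probes.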

How the results depend on the processing

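Of the 38 member probes, 0 was called for line with the normexp correction, the median signal, the filter on all arrays (which drops ATF3), scan day 1 alone and the deposited log2 values, where ATF3 was at -0.27, -0.39, -0.47 (day 1) and -0.39 (deposited). For diet, 1 was called on scan day 1 alone. Without each pig in turn, the count for line was 0 to 1 and ATF3 was between -0.87 and -0.64. The log2 FC of DDIT3 for line was then between -0.049 and 0.004, those of CALR and HERPUD1 for diet between -0.016 and 0.029 and between -0.048 and 0.025, and the interaction of XBP1 between -0.078 and 0. Other values changed sign, those of ATF3 being the largest in size (0.38, 0.58 and 0.66, against -0.482, -0.561 and -0.104 over all pigs). On scan day 1 alone, HERPUD1 was at 0.016 for line, HSPA5 at 0.006, HSP90B1 at 0.02 and HERPUD1 at 0.068 for diet, and the interaction of HSPA5 was 0.039. The diet effect in the low RFI line was 0.025 for HSPA5, 0.063 for HSP90B1, 0.002 for HERPUD1 and -0.062 for DDIT3, that in the high RFI line 0.056 for CALR, 0.055 for ATF4 and 0.66 for ATF3, and the line effect with the LF diet was 0.38 for ATF3. On scan day 2 alone, ATF4 was at -0.046 for line, CALR at -0.101 and XBP1 at -0.007 for diet, and the interactions of DDIT3 and ATF3 were 0.036 and 0.58. The line effect with the LF diet was -0.049 for HSP90B1, -0.048 for HERPUD1, -0.027 for ATF4 and -0.055 for DDIT3, and the diet effect -0.079 for CALR and -0.016 for XBP1 in the low and -0.068 for HERPUD1 in the high RFI line. DDIT3 was at 0.006 for line with normexp. For diet, HERPUD1 was at 0.008 with normexp, 0.019 with quantile normalization and 0.035 with the mean over probes, CALR was at -0.001 with the filter on all arrays, and CALR in the high RFI line was at 0.0 with the median signal, 0.018 with normexp and 0.031 with quantile normalization. The cause was not tested. In the pathway lists, 1 gene was called for line on scan day 2 alone, 1 for diet with quantile normalization, without the filter and on each scan day alone, and 0 for the interaction (1 in the report, KLF6) with the ANOVA, the 75th percentile, quantile normalization, no filter, the slide as a block or the scan day as a block. With the mean over all probes, 6 pairs of members passed, while XBP1 and ATF4 (-0.30), HSP90B1 and DDIT3 (0.307), and HERPUD1 with ATF4 (0.32), HSPA5 (0.365) and HSP90B1 (0.034) did not. The 10 pairs passed under the other 9 settings, with HSPA5 and HSP90B1 between 0.76 and 0.82 over all settings.
No paired analysis was possible because replicate numbers, given in accession order, do not pair pigs across groups.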

Other observations

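The genes whose pattern over the 48 pigs was most opposed to that of a member were ranked by Pearson r of differences from the group mean, and were chosen after their values were seen, with no test. Opposed to ATF4 were CIDEC (r = -0.75) and CIDEB (-0.73), proteins of lipid droplets, and TSPAN13 (-0.75), with values between -0.85 and -0.72 on the scan days taken apart. Opposed to XBP1 were FAM81A (-0.80), ZBTB20 (-0.77), a transcriptional repressor of the liver, and THRB (-0.77), a receptor of thyroid hormone. Opposed to HSPA5 were GRB7 (-0.71), GPR1 (-0.68) and SIRT1 (-0.66), a deacetylase. Of these, GRB7 also had a log2 FC of 0.84 for diet, higher with the HF diet.

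Opposed to CALR was OTC (-0.64), an enzyme of the urea cycle, beside CYP4V2 (-0.65), and opposed to HSP90B1 were NINJ1 (-0.66), SEC14L3 (-0.65) and BBOX1 (-0.63), an enzyme of carnitine synthesis. SEC14L3 had a log2 FC of 0.62 for diet (P = 0.000572 with limma) and BBOX1 one of 0.29 for line (P = 7.84e-05 with limma). HERPUD1 was opposed by SGK1 (-0.62), HACE1 (-0.62) and ZNF22 (-0.61), and DDIT3 by NR2F2 (-0.62), ZNF532 (-0.62) and CTDSPL (-0.60). For ATF3 the lowest values were smaller in size, with SKP2 at -0.50, ACSM3 at -0.48 and NQO1 at -0.47.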
